A study of Mus musculus with 2 samples.

Results

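The genes of the miR-15, miR-16, miR-195 and miR-497 family, a group of microRNAs (miRNAs) known for restraining the cell cycle, were measured by microRNA sequencing in the mouse neural tube. The 6 genes Mir15a, Mir16-1, Mir15b, Mir16-2, Mir195a and Mir497b were taken by name, through the Ensembl identifiers of GENCODE, from the 1973 miRNA genes counted, and all 6 had a row. The tissue came from B6NCrl embryos at embryonic day 14.5, with no genotype change and no treatment stated, and made up 1 group of 2 libraries. Replicate 1 was pup 1 of dam 1 and replicate 2 was pup 1 of dam 2. The labels name a single neural tube per library and also a pool of both sexes, and which of these holds is not settled by the sources used here. The tissue mixes progenitors, neurons, glia and vessels, and fewer cells of a type and less RNA per cell cannot be told apart in it.

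A miRNA is cut from a hairpin in a longer transcript, and bases 2 to 8 of its mature strand, the seed, pair with messenger RNAs that are then repressed. The miR-15/16 family is known for repressing cyclins of the D and E types, cyclin-dependent kinases and the survival factor BCL2, and the human pair of MIR15A and MIR16-1 is often deleted in chronic lymphocytic leukaemia. In the mouse heart miR-195 is known for helping to stop cardiomyocyte division around birth. The members lie at 3 loci, each with a pair of hairpins. Mir15a with Mir16-1, and Mir15b with Mir16-2, are thought to be cut from a shared transcript. At the remaining locus Mir195a and Mir497b lie on opposite strands, so these members do not share a transcript.

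The mature 5p strands, and the single mature strand listed for Mir497b, are shown to place the family by its seed. The seed of each strand is in capitals. All are written 5′ to 3′ and come from RefSeq on GRCm38.p6.
miR-15a-5p: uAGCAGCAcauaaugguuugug
miR-15b-5p: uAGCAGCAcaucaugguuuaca
miR-16-5p: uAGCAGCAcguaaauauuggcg
miR-195a-5p: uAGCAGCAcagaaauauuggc
miR-497a-5p: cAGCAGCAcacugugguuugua
miR-497b: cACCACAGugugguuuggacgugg
The 5 members other than Mir497b share the seed AGCAGCA, as does miR-497a-5p, which comes from the gene Mir497. The single mature strand listed for Mir497b has a different seed, ACCACAG, so Mir497b belongs to the family by its place and name and not by its seed. Past the seed the strands diverge. Compared base by base from base 1 at the 5′ end, miR-15a-5p and miR-15b-5p were identical at 18 of 22 positions, and their differences, from miR-15a to miR-15b, were A12C, G20A, U21C and G22A. The strand of miR-195a-5p was closer to miR-16-5p, with 19 of 21 positions identical and the differences G10A and U11G from miR-16 to miR-195a.

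Mir15a lies at chr14:61632027-61632110 on the minus strand, in an intron of Dleu2, a long noncoding RNA gene. Mir16-1 lies 54 bases further along the transcript at chr14:61631880-61631972, also within Dleu2, and 13 of its 93 bases fall in an annotated exon of that gene. Mir15b lies at chr3:69009772-69009835 on the plus strand, and Mir16-2 follows after 66 bases at chr3:69009902-69009996. Both are in an intron of Smc4, which encodes a core subunit of the condensin complexes that compact chromosomes for division. Mir195a lies at chr11:70235042-70235135 on the plus strand, outside other genes annotated there. Mir497b lies at chr11:70234692-70234816 on the minus strand, 225 bases from Mir195a, and opposite Mir497 at chr11:70234717-70234800.

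The hairpins of Mir16-1 and Mir16-2 are shown because they share a run of 23 bases, in capitals, that holds all 22 bases of miR-16-5p.
Mir16-1: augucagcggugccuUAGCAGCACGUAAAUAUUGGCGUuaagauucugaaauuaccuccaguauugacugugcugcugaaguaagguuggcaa
Mir16-2: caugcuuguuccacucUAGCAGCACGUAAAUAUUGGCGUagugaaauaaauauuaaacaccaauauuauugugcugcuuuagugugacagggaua
A read that lies within this run matches both loci. The files counted reads at several positions for no gene, and these reads were 32.4% of all reads in replicate 1 and 33.3% in replicate 2. The counts of Mir16-1 and Mir16-2 are therefore those of reads that could be placed at 1 locus, and the level of miR-16-5p itself is uncertain. The mature strands of the other members were found in no other of the 1005 hairpins in the sequence table. These hairpins are fewer than the 1973 genes counted and do not include that of Mir15a, so matches elsewhere were not searched. The longest run that Mir195a shared with another hairpin was 16 bases, with Mir195b, and for Mir15b it was 10 bases.

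The libraries held 3172235 and 3671915 counts on the sense strand of miRNA genes in replicate 1 and replicate 2. Levels below are counts per 1000000 of these (CPM), given as mean ± SD (n = 2 libraries). They were not divided by hairpin length, because reads come from mature strands of 21 to 24 bases. No molecular identifiers are stated, so intervals and limits cover counting error only, and a gene without counts could still have stood at up to 0.946 CPM (replicate 1) or 0.817 CPM (replicate 2). Neural miRNA genes were present, led by Mir137 at 9457 ± 193 CPM, and 10 of the 13 measured had at least 10 counts in both libraries. The summed markers were 24350 and 22542 CPM in replicate 1 and replicate 2 for neural, 8443 and 17271 for endothelial, 2383 and 3179 for mesenchymal, 2109 and 15050 for sensory, 219 and 345 for blood, 407 and 508 for epithelial and 45.4 and 53.1 CPM for skeletal muscle genes. Reads at several positions are absent from these sums, and the neural list holds copies of the miR-9 and miR-124 genes. The names of Mir133a-2 and Mir1a-1 in the muscle list and of the Mir199a genes in the mesenchymal list also number them as copies. Of these lists, 1 measured gene, the muscle gene Mir133a-2, had no count in either library. Reads shared between copies would not be counted, and the limits above do not cover them, so low counts of such genes do not show absence. The part of these other cell types in the family's values was not tested.

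By the reads counted, the family was present at a moderate level, and the Dleu2 pair led it. Together the 6 members held 15726 sense counts in replicate 1 and 20647 in replicate 2, or 5290 ± 471 CPM, which is 0.529% ± 0.0471 of all sense counts. The Dleu2 pair of Mir15a and Mir16-1 made up 73.9% of the family in replicate 1 and 71.9% in replicate 2. The Smc4 pair of Mir15b and Mir16-2 made up 22.0% and 23.6%. The sum and these shares leave out reads that match both miR-16 genes and reads on the other strand of Mir497b. Of the 6 members, 5 had at least 10 counts in both libraries and ranked between place 59 and place 152 of the 1973 genes by mean CPM.

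Mir15a was the highest member, with 6042 counts in replicate 1 and 8177 in replicate 2, or 1905 and 2227 CPM (mean 2066 ± 228). Mir16-1, its neighbour in Dleu2, had 5577 and 6659 counts, or 1758 and 1813 CPM (mean 1786 ± 39.2). Mir15a stood above Mir16-1 in each library, and the gap between their means, 280.0 CPM, was little more than the sum of their SDs, 267 CPM. Reads of miR-16-5p that matched both loci are missing from Mir16-1, so this order holds for the reads counted and not for the mature miRNAs.

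Mir15b, the first hairpin of the Smc4 pair, had 2275 and 3310 counts, or 717 and 901 CPM (mean 809 ± 130). Mir16-2, the second, had 1179 and 1573 counts, or 372 and 428 CPM (mean 400 ± 40.1). Mir195a had 652 and 928 counts, or 206 and 253 CPM (mean 229 ± 33.4), the lowest of the members with the family seed. The order from Mir15a down to Mir195a was the same in both libraries. The gap from each of these 5 members to the next lower one was larger than the sum of the 2 SDs, and with 2 libraries this has no test.

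**Figure D1:**
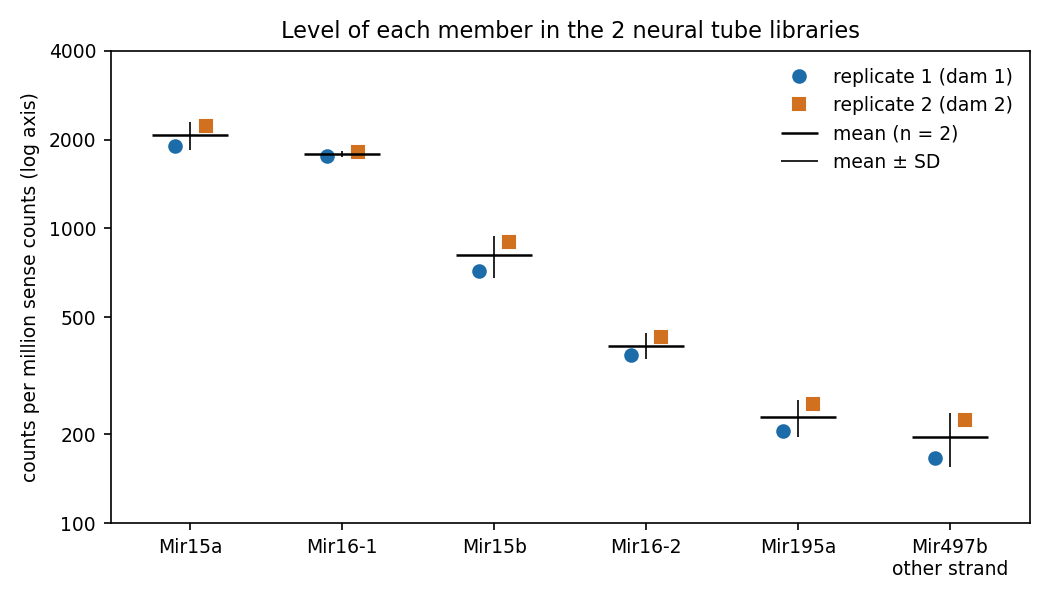
CPM (log axis) of the 5 members with reads on their own strand, and of the other strand of Mir497b, in replicate 1 (circles) and replicate 2 (squares), with the mean and SD (n = 2). Levels fall from 2066 CPM for Mir15a to 229 CPM for Mir195a in the same order in both libraries, and each gene is higher in replicate 2 on this scale.

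**Figure D2:**
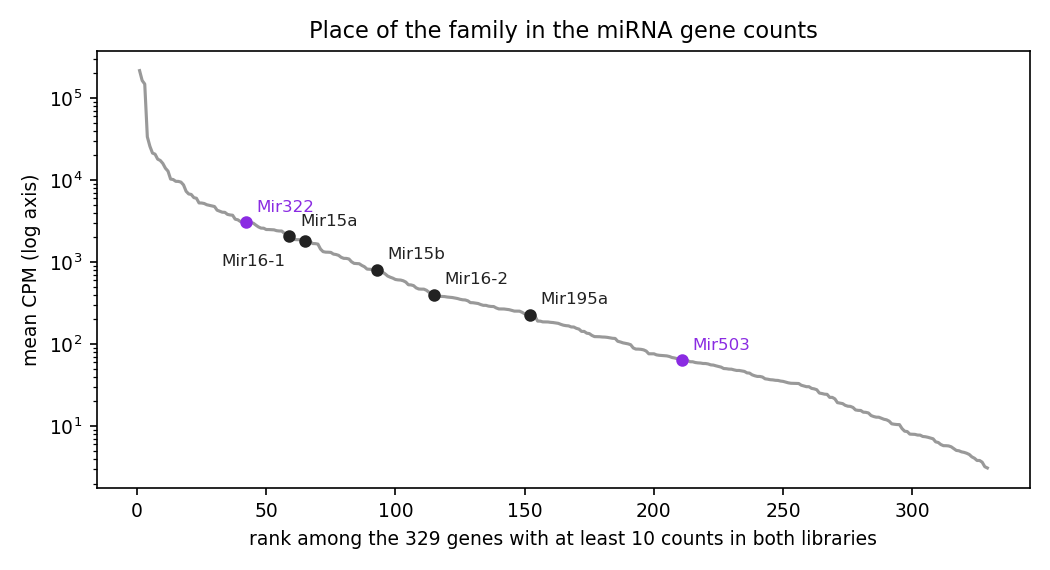
Mean CPM (log axis) of the 329 genes with at least 10 counts in both libraries against their rank, with 5 members in black and the relatives Mir322 and Mir503 in purple. The members lie between rank 59 and rank 152.

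Mir497b had almost no reads of its own and many on the strand opposite. Its sense strand had 1 count in replicate 1 and 0 in replicate 2, which is at or under the limit set by a count of 0. Its other strand had 529 and 823 counts. These were 99.8% (lower bound of the exact 95% interval, 99.0%) and 100% (lower bound 99.6%) of its counts on either strand. The strands are shown as hairpins with the mature bases in capitals, to show which miRNAs the locus can give.
Mir497: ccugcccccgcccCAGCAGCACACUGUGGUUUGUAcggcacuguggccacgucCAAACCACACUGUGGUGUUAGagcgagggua
Mir497b: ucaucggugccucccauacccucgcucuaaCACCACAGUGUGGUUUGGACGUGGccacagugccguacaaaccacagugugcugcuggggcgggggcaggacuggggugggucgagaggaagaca
The reverse complement of the whole 84-base Mir497 hairpin lies inside the 125 bases of Mir497b. Reads on the other strand of Mir497b therefore have the direction of Mir497, whose 5p strand carries the seed AGCAGCA. Mir497 had no row of its own in the tables, and whether these reads were miR-497a-5p or miR-497a-3p is not given by counts per gene.

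Set against the same sense totals, the other strand of Mir497b stood at 167 and 224 CPM (mean 195 ± 40.6). Mir195a, its neighbour on that strand, held 55.2% (exact 95% interval 52.3 to 58.1) of the counts of the pair in replicate 1 and 53.0% (50.6 to 55.4) in replicate 2. The other 5 members had 0 counts on the other strand in both libraries. The limit that this sets ranged from 0.0367% of counts for Mir15a in replicate 2 to 0.460% for Mir195a in replicate 1. Over the 340 genes with at least 10 counts on either strand in both libraries, 301 had no count on the other strand, and 11 (3.24%) had most of their counts there in both libraries, Mir497b among them. By mean level on the other strand Mir497b ranked 8th of all genes.

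**Figure D3:**
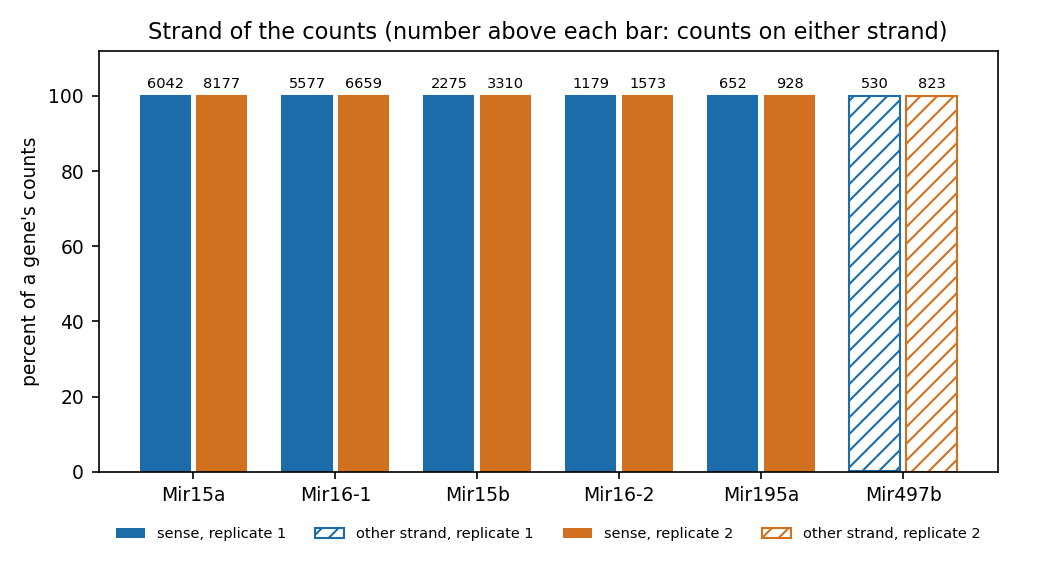
Percent of each member's counts on its own strand (filled) and on the other strand (hatched) in both libraries, with the number of counts on either strand above each bar. Mir497b, at 530 and 823 counts, is read almost wholly from the other strand, and the 5 other members from their own.

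The split of counts within each pair differed little between the libraries. Mir15a held 52.0% (exact 95% interval 51.1 to 52.9) of the counts of the Dleu2 pair in replicate 1 and 55.1% (54.3 to 55.9) in replicate 2. The difference, replicate 1 minus replicate 2, was -3.11 percentage points and beyond counting error (two-sided Fisher's exact test, p = 1.5e-06, Benjamini-Hochberg adjusted over 3 pairs). Mir15b held 65.9% (64.3 to 67.4) and 67.8% (66.5 to 69.1) of the Smc4 pair, and this difference of -1.92 percentage points missed the threshold (exact test, adjusted p = 0.069). Mir16-1 held 82.5% (81.6 to 83.4) and 80.9% (80.0 to 81.7) of the reads placed at either miR-16 gene (exact test, adjusted p = 0.014). That difference was 1.66 percentage points. These tests compare the reads of 2 libraries, not litters. In the Dleu2 pair and in the Smc4 pair the miR-15 gene held the larger share, in a count from which reads shared by both miR-16 genes are absent.

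**Figure D4:**
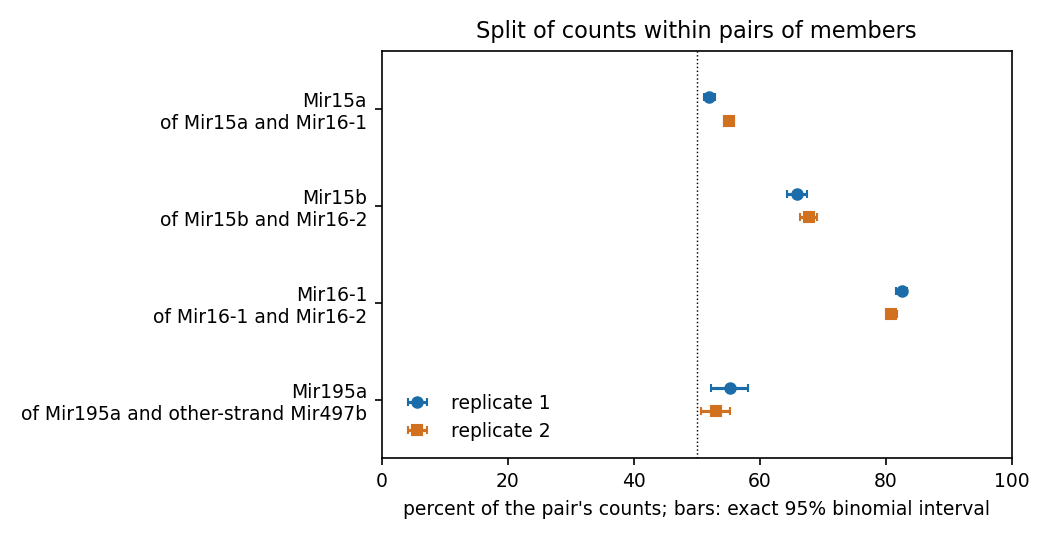
Percent of a pair's counts held by the member named first, in replicate 1 (circles) and replicate 2 (squares), with exact 95% binomial intervals. Mir15a holds 52.0% and 55.1% of the Dleu2 pair, and Mir16-1 holds 82.5% and 80.9% of the reads placed at either miR-16 gene.

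Between the libraries of the 2 dams, 0 of the 5 tested members were called, where a call needed at least 2-fold and an adjusted p below 0.05 (two-sided exact binomial test, Benjamini-Hochberg over 360 genes, with library sizes scaled by TMM, the trimmed mean of M-values). Over all tested genes 37 of 360 were called, or 10.3%, so 0 of 5 is near the background and is not a result about the members. With 1 library per dam there is no replicate check, and the test compares these libraries only. Of the 37 genes called, 14 were higher in replicate 1 (3.89% of tested genes, against 0 of 5 members) and 23 in replicate 2 (6.39%, against 0 of 5 members). Scaling by total counts moved all log2 ratios by -0.21 and made this split 8 and 35.

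With TMM scaling the ratio farthest from 0 among the members was that of Mir16-1, whose log2 ratio (replicate 1 over replicate 2) was 0.17, with a 95% interval of 0.12 to 0.22, and an adjusted p of 5.5e-10 in the exact binomial test. This is beyond counting error and is 1.12-fold, well under 2-fold, and with scaling by total counts it turned to -0.045, the nearest to 0 of the 5, while Mir15b was then the farthest at -0.33. Mir15b stood on the other side at -0.12 (-0.19 to -0.040), with an adjusted p of 0.0061 in the exact binomial test. Mir195a stood at -0.085 (-0.23 to 0.061), Mir15a at -0.013 (-0.061 to 0.035) and Mir16-2 at 0.0080 (-0.10 to 0.12), each with an interval that includes 0. The median of the 5 was -0.013, and that of all 360 tested genes was -0.019. The absolute log2 ratio of each of the 5 was below the median absolute ratio of all tested genes, 0.29. Other-strand counts of Mir497b gave -0.21 (-0.37 to -0.054), also higher in replicate 2 and under 2-fold.

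For each detected member the gene nearest in log2(CPM + 1) over the 2 libraries was found among the 329 detected genes. Mir301, at 1778 and 1991 CPM, was nearest to Mir15a at a distance of 0.19, and Mir1983, at 1728 and 1925 CPM, to Mir16-1 at 0.090. Mir300, at 748 and 897 CPM, was nearest to Mir15b at 0.062. Mir3071, at 349 and 411 CPM, was nearest to Mir16-2 at 0.11, and Mir339, at 213 and 252 CPM, to Mir195a at 0.050. With 2 libraries such likeness describes level and little else.

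The relatives Mir322 and Mir503, neighbours on chromosome X that are also known for acting on the cell cycle, had higher levels in replicate 2, and of them Mir503 was called. Among the sequences searched, 11 genes have a mature strand with the seed AGCAGCA, 5 of them members. Of the relatives listed, by seed or by name, Mir322 and Mir503 had counts, and their 5p strands are shown for comparison with bases 2 to 8 in capitals.
miR-322-5p: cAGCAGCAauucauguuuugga
miR-503-5p: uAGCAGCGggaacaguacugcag
Mir322 has the family seed, while the last base of the miR-503 seed differs from it (A8G from miR-16-5p to miR-503-5p), so Mir503 is a relative by name and near match only. Mir322 had 6300 counts in replicate 1 and 15071 in replicate 2, or 1986 and 4104 CPM. It was thus above Mir15a in each library. It was 1.78-fold higher in replicate 2, with a log2 ratio of -0.83 (95% interval -0.88 to -0.79), and was not called, while scaling by total counts brought it to 2.07-fold. Mir503 had 85 and 372 counts, or 26.8 and 101 CPM, and was called as 3.25-fold higher in replicate 2 (exact binomial test, adjusted p = 4.9e-27). Of the 7 relatives with a row, Mir195b, Mir6342, Mir6353 and Mir6419, which have the family seed, had no count in either library. The same held for Mir1907, a relative listed by name.

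As a share, and as a description only since these genes were set beside the members after their values were seen, the same counts read as follows. Of the counts of Mir322 and the 6 members together, Mir322 held 28.6% (exact 95% interval 28.0 to 29.2) in replicate 1 and 42.2% (41.7 to 42.7) in replicate 2. Mir503 held 0.538% (0.430 to 0.664) and 1.77% (1.60 to 1.96) of its counts and those of the members. Each side of this is 1 library, so the shares have no replicate check. By CPM, which scales by total counts, the summed markers of every list except neural were also higher in replicate 2, as given above. On that scale the median log2 ratio of all 360 tested genes was itself -0.23. Mir203, at 374 and 474 CPM, held most of the epithelial sum. With TMM scaling, ratios were above 0 for 3 of 5 tested epithelial, 1 of 4 mesenchymal and 1 of 6 blood genes. The same held for 0 of 3 sensory, 0 of 1 endothelial and 0 of 1 muscle genes. The part of these marker genes in the values of Mir322 and Mir503 was not tested.

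**Figure D5:**
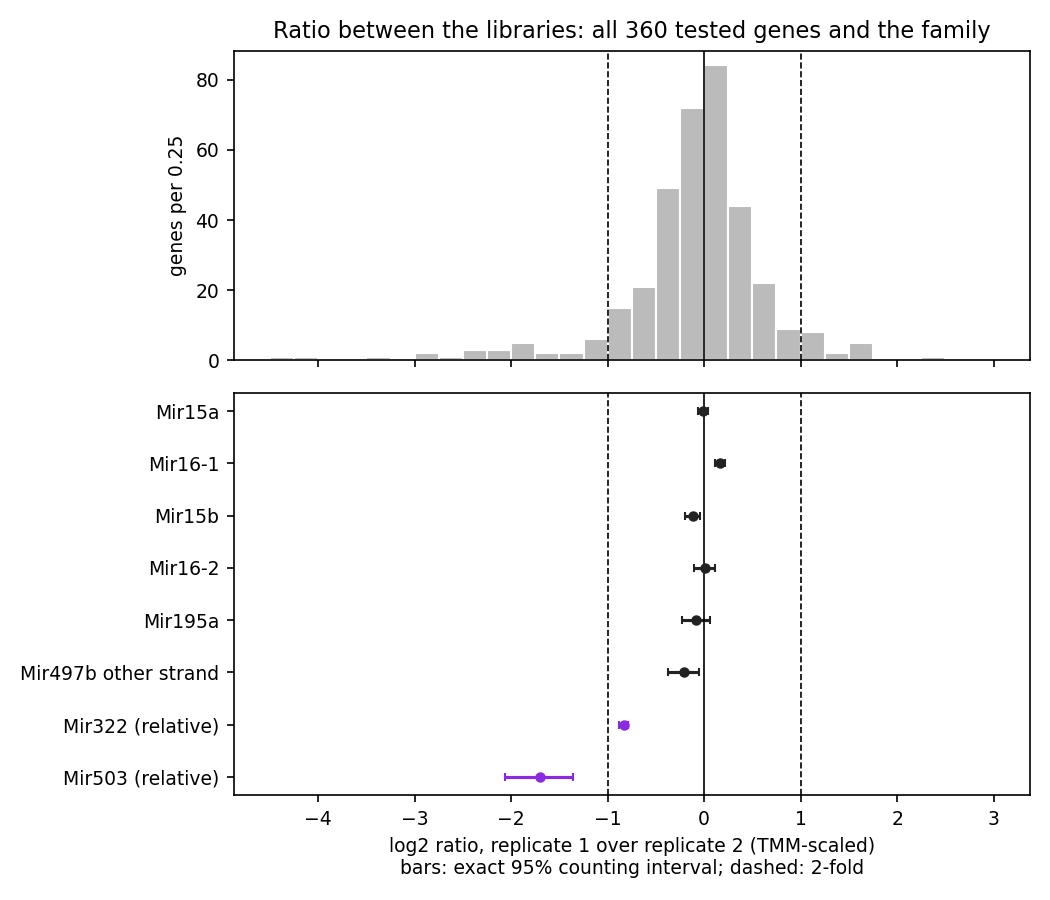
Upper panel, histogram of the log2 ratio of replicate 1 over replicate 2 for the 360 tested genes. Lower panel, the same ratio for 5 members, the other strand of Mir497b and the relatives Mir322 and Mir503, with exact 95% counting intervals and dashed lines at 2-fold. The members lie between -0.12 and 0.17, while Mir322 is at -0.83 and Mir503 at -1.70.

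Lists of miRNAs with other roles in the cell cycle gave medians on either side of the members. Of 9 measured genes linked to proliferation, from the miR-17 and miR-106b clusters, 0 were called in either direction, against 10.3% of all tested genes, and the median log2 ratio was -0.35. Mir17 led this list at 10296 ± 2605 CPM, followed by Mir93 at 4920 ± 1142 CPM and Mir106b at 4296 ± 1173 CPM. Of 17 tested genes linked to cell cycle exit, from the let-7, miR-34, miR-449 and miR-26 families, 2 were called higher in replicate 1 and 0 higher in replicate 2, against 3.89% and 6.39% of all tested genes, with a median of 0.49. The 2 genes called were let-7 genes. Log2 ratios of the let-7 family with miR-98 ranged from 0.32 to 1.36, and those of the other families from -0.41 to 0.31. The median thus reflects the let-7 family more than the other families. With so few genes neither count is read as a result about the list. Its highest genes were Mirlet7g at 25797 ± 3542 CPM, Mirlet7i at 21359 ± 3675 CPM and Mir26b at 8739 ± 698 CPM. With scaling by total counts these medians were -0.56 and 0.28, against -0.23 for the members. Several let-7 genes have copies with the same mature strand, so reads shared by these copies are not counted, as for Mir16-1 and Mir16-2. The same can hold for other genes with copies in these lists, such as those of miR-26a.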

How the data were processed

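MicroRNA sequencing was measured in 2 neural tube libraries. Each library had 1 deposited table of raw read counts for miRNA genes, not normalized, for either strand, the sense strand and the other strand. Per the deposited text notes, the authors made these counts on assembly mm10 with annotation M4. No source used here names the aligner, the trimming or the read filters. Each table held 1973 genes and 4 rows that name no gene, which stayed out of library sizes and tests. These rows were reads at several positions (32.4% and 33.3% of reads in replicate 1 and replicate 2), unmapped reads (11.5% and 11.8%), reads on no gene's sense strand (2.75% and 3.01%) and ambiguous reads (0%). The column taken as sense is the one with nearly all gene counts, the other strand holding 1.26% and 1.49%.

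Symbols, positions and overlaps came from GENCODE M21 on GRCm38, the assembly also called mm10, by Ensembl identifier without version, and 1894 of 1973 identifiers matched. RefSeq sequences were matched by symbol, with a mature strand for 6 of 6 members and a hairpin for 5. Detected means at least 10 counts in both libraries and tested at least 10 in 1. Ratios used TMM factors from edgeR 4.0.16 (R 4.3.3) and a prior count of 0.5, with exact binomial tests, Fisher's exact tests and exact 95% intervals in scipy 1.17.1. The replicates leave no residual degrees of freedom between dams for edgeR's quasi-likelihood test. The libraries differed far beyond sampling noise (chi-square of 318 per degree of freedom, 329 genes), so they are not 1 library deposited again. Alternatives were other scalings (totals, DESeq2 1.42.0 size factors), filters, either-strand counts, summed miR-16 genes, an overdispersed test and leaving out a library. The procedure was tested on simulated counts with sampling noise only, which does not show how it performs on libraries that differ beyond such noise.

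The members and lists were chosen with earlier results of these data known. Named genes were the 6 members, relatives by seed or by name, the gene nearest in level to each detected member, up to 3 genes per list with the highest mean CPM, and the gene opposite a member. The marker lists were described by summed level. Called higher in replicate 2 were 3 of 3 tested sensory, 3 of 4 mesenchymal and 1 of 6 blood genes, against 6.39% of all tested genes. Called higher in replicate 1 were 1 of 6 blood, 1 of 5 epithelial and 2 of 11 neural genes, against 3.89% of all tested genes. Endothelial and skeletal muscle had 0 of 1 called, against 10.3% in either direction. With so few genes these counts are not read as results about the lists. Python 3.11.15, numpy 2.4.6, pandas 2.3.3 and matplotlib 3.10.9 were used.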

Additional observations from a re-analysis of the deposited data

How the results depend on the processing

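No paired analysis was possible because the design holds a single group of 2 libraries. Over the alternatives tried, 0 of the 5 tested members were called under any of them, and their log2 ratios ranged from -0.33 to 0.18. Direction changed in 4 of 32 alternatives. With scaling by total counts Mir16-1 went to -0.045 and Mir16-2 to -0.20, with no filter on low counts Mir16-2 went to -0.027, and with DESeq2 size factors Mir15a went to 0.0038. Scaling alone accounts for these, since it moves all ratios alike. The count of genes called fell from 37 to 21 with at least 100 counts over both libraries, where fewer genes (282) were tested, and to 20 with an assumed coefficient of variation of 0.2 between libraries, where all 5 members had an adjusted p of 1. With either-strand counts the level of Mir497b was 193 CPM in place of 0.158 CPM, by construction. Leaving out a library moved the family's summed level to between 4957 and 5623 CPM and kept the order of members with the family seed, while a ratio between libraries cannot be formed from 1. Mir497b was too low on its own strand for a ratio. Depth limits Mir195a most, with 652 and 928 counts and an interval of -0.23 to 0.061.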
